A study of Mus musculus with 8 samples.

Results

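The enzymes that write, copy and remove methyl groups on DNA were described in mouse embryonic stem cells with mutations of Gtf2i, the gene of the transcription factor TFII-I. The set holds 8 genes chosen by name: the DNA methyltransferases Dnmt1, Dnmt3a and Dnmt3b, their cofactors Dnmt3l and Uhrf1, and the methylcytosine dioxygenases Tet1, Tet2 and Tet3. On the array these genes had 20 of the 45101 probe sets, and all 20 lay above the filter on low values on every one of the 8 arrays. Total RNA from 4 lines was hybridised to Affymetrix mouse expression arrays, with 2 arrays per line.

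The exon 2 mutant line was made by gene targeting in R1 embryonic stem cells and carries the genotype Δexon2/+, labelled as a Gtf2i mutation. The trap line comes from a gene trap in AB2.2 embryonic stem cells and is labelled HPRT -/-:GTF2I +/-, so it carries 1 trapped Gtf2i allele on top of a lost Hprt gene. The Hprt knockout line is labelled HPRT -/- and shares the loss of Hprt, a purine salvage enzyme, with the trap line. The fourth group is labelled wild-type. The labels do not name the parental line of the Hprt knockout or wild-type cells, so line background and mutation cannot be told apart in any comparison. The exon 2 mutant samples were registered apart from all others. Whether they were processed in another batch is not given, so batch and this line cannot be told apart either. All cells grew on a monolayer of feeder cells in Knockout DMEM with serum replacement and LIF. The arrays of a line are labelled as biological replicates without mention of separate cultures, so the p-values rest on array-to-array spread within a line that may be technical alone.

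DNA methylation in mammals is laid down on cytosines of CG dinucleotides (CpG). DNMT3A and DNMT3B place methyl groups on unmethylated DNA, DNMT3L is a partner without catalytic activity that stimulates them, and UHRF1 brings DNMT1 to newly replicated DNA so that the pattern is copied to the daughter strand. TET enzymes oxidise 5-methylcytosine to 5-hydroxymethylcytosine and beyond, a step towards unmethylated cytosine. Embryonic stem cells are known for high Tet1, Tet2, Dnmt3b and Dnmt3l expression, and for surviving the loss of methylation. RNA levels only were measured here; neither methylation nor protein was.

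The libraries of the 4 lines differed in more than Gtf2i, and these values stand beside every result that follows. Arrays of the same line correlated at 0.997 to 0.998 over the genes tested, the Hprt knockout arrays correlated with the other lines at 0.866 to 0.920, and the remaining pairs lay at 0.967 to 0.979. The summed intensity of 27 feeder fibroblast markers was 136651 to 138010 in exon 2 mutant, 153146 to 154024 in trap, 12140 to 12236 in Hprt knockout and 198143 to 199242 in wild-type arrays. All 27 were lower in Hprt knockout than in wild-type arrays, by a median of -4.64 on the log2 scale, and 2 of the 27 were below the filter level there. The part of feeder RNA in the differences between lines was not tested, and in such bulk RNA fewer cells of a type and less RNA per cell cannot be told apart. The cells carried the markers of their labelled type: all 18 embryonic stem cell markers lay above the filter level on every array. Their mean log2 intensity was 11.74 to 11.75 in exon 2 mutant, 11.75 to 11.76 in trap, 11.64 to 11.67 in Hprt knockout and 11.29 to 11.30 in wild-type arrays. A rescaling that set this marker mean equal on all arrays, chosen after the data were seen, is given for the 8 genes wherever it changes a call or turns the sign of a difference that passes with either scaling. Of 7 trophoblast markers tested, 5 were higher in Hprt knockout than in wild-type arrays (median log2 difference 2.11), where 46.4% of all genes were higher. Of 9 primed epiblast markers 8 were higher in the same comparison (1.08), or 5 of 9 with that rescaling. Of 16 primitive endoderm markers, 13 were lower in exon 2 mutant than in wild-type arrays (median -0.77). In trap arrays 10 were lower and 3 higher than in wild-type (median -0.40), and in Hprt knockout arrays 5 and 9 (median 0.35). Of all genes 23.1%, 14.6% and 25.1% were lower in these comparisons. The summed intensity of the 16 markers was nevertheless 11836 to 11929 in Hprt knockout and 29433 to 29686 in wild-type arrays. Pdgfra is among both the primitive endoderm and the feeder markers, and the feeder part in these counts was not tested. Hprt averaged log2 10.74 in trap and 10.04 in Hprt knockout arrays, against 12.08 in wild-type arrays. Gtf2i, by its brightest probe set, was at 10.45 and 10.51 in exon 2 mutant, 10.11 and 10.07 in trap, 10.92 and 10.89 in Hprt knockout, and 10.10 and 10.14 in wild-type arrays. It was higher in exon 2 mutant than in wild-type cells by 0.36 (adjusted p = 0.00102), and trap and wild-type cells differed by -0.03, which did not pass (adjusted p = 0.638, 95% interval -0.15 to 0.09). Against the Hprt knockout line the trap line was lower by -0.82 (adjusted p = 9.87e-06). Where its probe sets lie relative to exon 2 or the trap was not analysed here, so this does not check the alleles.

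Promoter windows of 300 bases, most of them before an annotated start, were copied from RefSeq (GRCm38.p6) and are printed with CpG dinucleotides in capitals. They are shown because CpG content is the substrate of the enzymes that these genes encode. Dnmt3a has 3 such windows, at chr12:3806730-3807029, chr12:3806910-3807209 and chr12:3891494-3891793 on the plus strand. Of these windows, window 1 lies furthest upstream, though inside the gene as annotated (from position 3801559), and window 3 lies furthest downstream. The windows hold 46, 47 and 18 CpGs, against a median of 7 over the 32851 windows of the table. Dnmt3b has 1, at chr2:153649199-153649498 on the plus strand, with 30 CpGs, and Tet1 has 1, at chr10:62887275-62887574 on the minus strand, with 17.
Dnmt3a window 1: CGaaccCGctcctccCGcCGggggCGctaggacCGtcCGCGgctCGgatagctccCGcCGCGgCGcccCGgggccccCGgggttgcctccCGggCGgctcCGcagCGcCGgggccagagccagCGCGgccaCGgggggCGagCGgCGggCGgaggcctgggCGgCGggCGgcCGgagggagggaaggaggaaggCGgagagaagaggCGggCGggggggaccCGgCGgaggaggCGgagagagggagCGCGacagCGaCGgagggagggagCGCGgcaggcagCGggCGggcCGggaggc
Dnmt3a window 3: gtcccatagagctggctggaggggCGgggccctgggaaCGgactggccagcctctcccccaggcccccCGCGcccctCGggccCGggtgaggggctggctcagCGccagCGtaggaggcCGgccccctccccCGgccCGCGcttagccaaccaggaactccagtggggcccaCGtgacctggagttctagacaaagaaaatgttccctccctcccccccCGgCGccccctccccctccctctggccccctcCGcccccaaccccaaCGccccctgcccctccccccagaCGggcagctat
Dnmt3b window: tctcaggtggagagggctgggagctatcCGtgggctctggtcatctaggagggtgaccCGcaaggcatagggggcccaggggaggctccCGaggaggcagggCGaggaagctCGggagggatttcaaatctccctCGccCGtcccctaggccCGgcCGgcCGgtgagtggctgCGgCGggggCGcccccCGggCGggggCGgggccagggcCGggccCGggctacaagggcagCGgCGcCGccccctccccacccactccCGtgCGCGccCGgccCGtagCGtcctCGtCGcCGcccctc
Tet1 window: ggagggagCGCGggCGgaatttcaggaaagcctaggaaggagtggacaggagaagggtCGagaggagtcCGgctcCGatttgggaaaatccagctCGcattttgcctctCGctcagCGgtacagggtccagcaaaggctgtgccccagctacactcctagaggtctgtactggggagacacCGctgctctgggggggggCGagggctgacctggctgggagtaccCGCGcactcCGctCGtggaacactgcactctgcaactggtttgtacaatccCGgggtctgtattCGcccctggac
The CpG number of Dnmt3a window 1 is matched or passed by 1.65% of all windows, that of window 3 by 29.7%, that of the Dnmt3b window by 11.7% and that of the Tet1 window by 31.4%. Tet2 had the densest window of the set, with 57 CpGs, a number reached by 0.152% of windows, and the 3 windows of Dnmt3l had 6, 4 and 3. Tet3 had 22. These counts describe the reference genome and say nothing about methylation in these cells.

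Dnmt3a, one of the pair of enzymes for new methylation (chromosome 12, GRCm38.p6 positions 3801559 to 3914443), was far higher in the Hprt knockout line than in the other 3. Its brightest probe set read log2 9.41 and 9.40 in exon 2 mutant, 9.18 and 9.23 in trap, 11.85 and 11.75 in Hprt knockout, and 9.06 and 9.13 in wild-type arrays. The Hprt knockout arrays lay apart from all others and the other 3 lines lay close together. Hprt knockout cells exceeded wild-type cells by 2.70 ± 0.06 (log2 difference ± SE, limma, adjusted p = 4.03e-08), or 6.52-fold, and trap cells were lower than Hprt knockout cells by a difference of -2.60 ± 0.06 (adjusted p = 6.08e-08). Both values use the same Hprt knockout arrays, whose feeder markers were the lowest. Exon 2 mutant cells exceeded wild-type cells by only 0.31 ± 0.06 (adjusted p = 0.00342), a difference that turned to -0.14 (adjusted p = 0.0446) when arrays were scaled to the stem cell markers. Trap and wild-type cells differed by 0.11 ± 0.06, which did not pass (adjusted p = 0.185, 95% interval -0.03 to 0.24), and by -0.35 (adjusted p = 0.000875) with that scaling. The higher level in exon 2 mutant than in trap cells, 0.20 ± 0.06 (adjusted p = 0.0232), was lost without any 1 of the 4 arrays of these lines (adjusted p from 0.0605 to 0.116).

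The 5 Dnmt3a probe sets disagreed on size. In Hprt knockout against wild-type cells they gave log2 differences of 2.70 (1423066_at), 2.57 (1423064_at), 2.39 (1423065_at), 1.14 (1423063_at) and 0.49 (1460324_at). The first 3 were in trap cells within 0.11 of wild-type cells. By contrast, 1423063_at was lower in trap cells by -0.31 (adjusted p = 0.0102) and 1460324_at by -0.45 (adjusted p = 0.00195), and both passed. For 1460324_at the arrays read 7.73 and 7.80 in exon 2 mutant and 7.08 and 7.09 in trap cells. They read 7.98 and 8.05 in Hprt knockout and 7.50 and 7.57 in wild-type cells. By this probe set the trap line was the lowest and did not overlap wild-type, as held for 73.4% of all genes tested. Dnmt3a is known to have a long and a short transcript that begin at separate promoters. Which transcript each probe set reads was not analysed here.

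**Figure D1:**
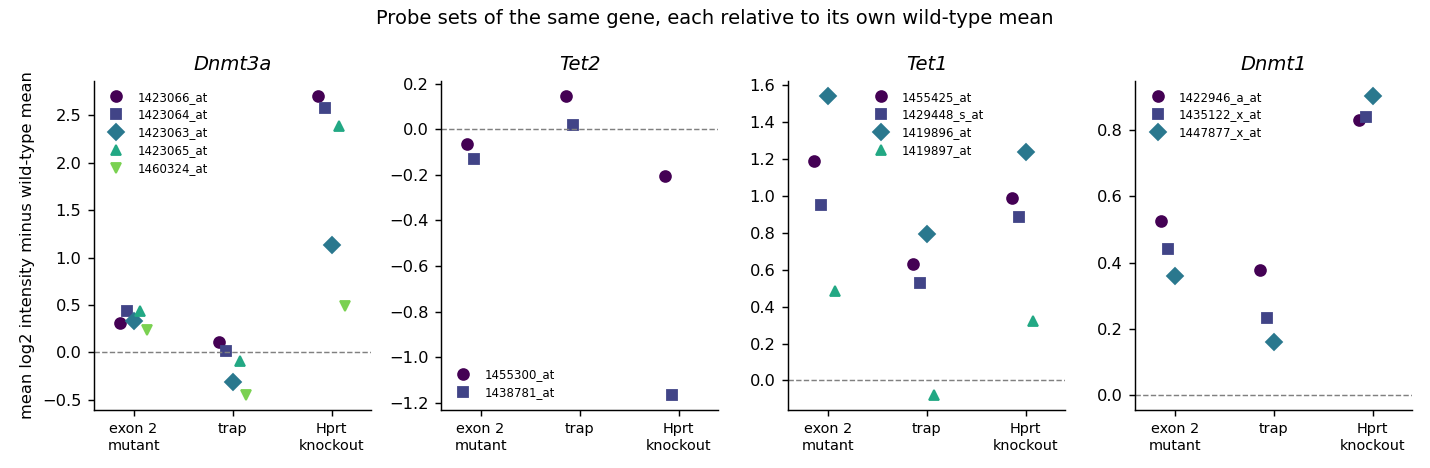
Log2 difference from the wild-type mean (vertical axis) for each probe set of Dnmt3a, Tet2, Tet1 and Dnmt1, with groups along the horizontal axis, 1 symbol per probe set and a separate scale per panel. In the Hprt knockout column the Dnmt3a symbols spread between 0.49 and 2.70, and those of Tet2 between -1.16 and -0.20, while those of Dnmt1 lie between 0.83 and 0.90.

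Dnmt3b, the other enzyme for new methylation (chromosome 2, positions 153649411 to 153687730), rose in every line relative to wild-type cells. Its brightest probe set read 11.82 and 11.77 in exon 2 mutant and 11.31 and 11.31 in trap arrays. It read 12.52 and 12.47 in Hprt knockout and 11.07 and 10.96 in wild-type arrays. No 2 lines overlapped, as held for 73.4% to 85.7% of all genes tested, depending on the comparison. The difference from wild-type cells was 0.78 ± 0.06 in exon 2 mutant (adjusted p = 6.08e-05), 1.49 ± 0.06 in Hprt knockout (adjusted p = 7.11e-07) and 0.30 ± 0.06 in trap cells (adjusted p = 0.00587). The last value turned to -0.16 (adjusted p = 0.0364) with arrays scaled to the stem cell markers, and that of the exon 2 mutant fell to 0.33. Trap cells were lower than Hprt knockout cells by a difference of -1.19 ± 0.06 (adjusted p = 2.59e-06). The second Dnmt3b probe set gave differences from wild-type of 0.84, 0.37 and 1.74 in exon 2 mutant, trap and Hprt knockout cells.

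Dnmt3l, the stimulating cofactor without enzymatic activity (chromosome 10, positions 78042287 to 78063622), was the member that set the trap line apart. Its single probe set read 11.28 and 11.31 in exon 2 mutant, 10.23 and 10.27 in trap, 11.82 and 11.87 in Hprt knockout, and 11.37 and 11.33 in wild-type arrays. Trap arrays lay below all others, while exon 2 mutant and wild-type arrays lay next to each other. The trap line fell below wild-type cells by a difference of -1.10 ± 0.05 (adjusted p = 2.05e-05). It fell below Hprt knockout cells by -1.59 ± 0.05 (adjusted p = 3.11e-07). Only 2.66% of all genes tested differed by as much between trap and wild-type cells. Exon 2 mutant and wild-type cells differed by -0.06 ± 0.05, which did not pass (adjusted p = 0.383, 95% interval -0.17 to 0.06). That difference passed with cyclic loess normalization (-0.15, adjusted p = 0.0414) and with the stem cell marker scaling (-0.50, adjusted p = 0.000165). Exon 2 mutant cells exceeded trap cells by 1.04 ± 0.05 (adjusted p = 1.96e-05), so the 2 Gtf2i mutant lines differed in this gene by about 2.06-fold. Hprt knockout cells exceeded wild-type cells by 0.49 ± 0.05 (adjusted p = 8.43e-05), or by 0.14 with the marker scaling (adjusted p = 0.0484).

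Dnmt1 and Uhrf1 form the maintenance machinery, and both are known to be transcribed mainly around S phase. Windows at their starts were searched for 4 E2F words (TTTCCCGC, TTTCGCGC, TTTGCCGC and TTTGGCGC, both strands), since E2F factors are known for switching on S-phase genes. Of all 32851 windows 2.265% hold at least 1 such word, and among the 15 windows of the 8 genes 1 of Dnmt1 and 1 of Uhrf1 do. They lie at chr9:20952574-20952873 on the minus strand and chr17:56304063-56304362 on the plus strand, and are shown with the words in capitals.
Dnmt1 window 3: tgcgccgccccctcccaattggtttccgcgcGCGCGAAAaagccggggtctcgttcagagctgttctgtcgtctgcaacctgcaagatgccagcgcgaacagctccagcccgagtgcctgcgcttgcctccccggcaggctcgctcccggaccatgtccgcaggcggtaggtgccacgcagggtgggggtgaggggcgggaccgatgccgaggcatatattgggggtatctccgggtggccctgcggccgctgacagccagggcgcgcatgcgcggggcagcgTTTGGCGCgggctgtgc
Uhrf1 window 2: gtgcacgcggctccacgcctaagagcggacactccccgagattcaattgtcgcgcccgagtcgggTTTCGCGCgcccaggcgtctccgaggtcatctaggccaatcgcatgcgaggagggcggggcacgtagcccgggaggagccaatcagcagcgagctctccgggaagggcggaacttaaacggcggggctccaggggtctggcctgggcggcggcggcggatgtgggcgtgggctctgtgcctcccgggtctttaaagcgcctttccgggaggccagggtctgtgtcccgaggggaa
The Dnmt1 window holds 2 words and that of Uhrf1 holds 1. Each word contains a CpG, and each of these windows holds 33 CpGs, a number reached by 8.56% of all windows. The share over all windows is therefore not a like measure for them. All 15 windows were also searched for an octamer (ATGCAAAT, in 1.735% of windows), which none holds. An E-box (CACGTG, in 7.15%) is held by Dnmt3a window 3 and window 2 of Dnmt3l. A GC box (GGGCGG, in 35.66%) is held by most of the 15, including the Dnmt1 and Uhrf1 windows shown. A match is a description of letters, and binding was not measured.

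Dnmt1, the maintenance methyltransferase (chromosome 9, positions 20907206 to 20959888), was lowest in wild-type arrays. It read 11.13 and 11.13 in exon 2 mutant and 10.99 and 10.97 in trap arrays. It read 11.42 and 11.44 in Hprt knockout and 10.60 and 10.61 in wild-type arrays. Its ranges did not overlap between lines, nor did those of 73.4% to 85.7% of all genes tested, depending on the comparison. It rose by 0.53 ± 0.05 in exon 2 mutant cells (adjusted p = 0.000118), by 0.83 ± 0.05 in Hprt knockout cells (adjusted p = 4.23e-06) and by 0.38 ± 0.05 in trap cells (adjusted p = 0.000863), each against wild-type. With the stem cell marker scaling the first became 0.08 (adjusted p = 0.147) and the third -0.08 (adjusted p = 0.164), and only the Hprt knockout difference of 0.48 still passed. Trap cells were lower than Hprt knockout cells by -0.45 ± 0.05 (adjusted p = 0.000104). The difference between exon 2 mutant and trap cells, 0.15 ± 0.05 (adjusted p = 0.0306), was lost without any 1 array of the exon 2 mutant, trap or wild-type lines (adjusted p from 0.0506 to 0.128) and with cyclic loess (0.12, adjusted p = 0.0676). The other 2 probe sets gave 0.44 and 0.36 for exon 2 mutant and 0.84 and 0.90 for Hprt knockout cells against wild-type. For trap against wild-type cells they gave smaller differences than the brightest one, 0.23 for 1435122_x_at (adjusted p = 0.0470) and 0.16 for 1447877_x_at, which did not pass (adjusted p = 0.0848).

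Uhrf1, which recognises hemimethylated DNA and recruits DNMT1 (chromosome 17, positions 56303337 to 56323486), was highest in the exon 2 mutant line. Its brightest probe set read 12.65 and 12.62 in exon 2 mutant, 11.74 and 11.72 in trap, 12.26 and 12.30 in Hprt knockout, and 11.77 and 11.75 in wild-type arrays. Trap and wild-type arrays lay next to each other, and the other 2 lines stood above them. Exon 2 mutant cells exceeded wild-type cells by 0.88 ± 0.05 (adjusted p = 2.12e-05), or 1.84-fold, and 7.88% of all genes tested differed by as much. They also exceeded trap cells by 0.91 ± 0.05 (adjusted p = 2.59e-05) and Hprt knockout cells by 0.36 ± 0.05 (adjusted p = 0.000546). Trap and wild-type cells differed by -0.03 ± 0.05, which did not pass (adjusted p = 0.660, 95% interval -0.14 to 0.08) but became -0.48 (adjusted p = 0.000181) with the stem cell marker scaling. Against Hprt knockout cells the trap line was lower by -0.55 ± 0.05 (adjusted p = 4.71e-05). The second probe set gave 0.86 for exon 2 mutant and -0.05 for trap cells against wild-type.

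**Figure D2:**
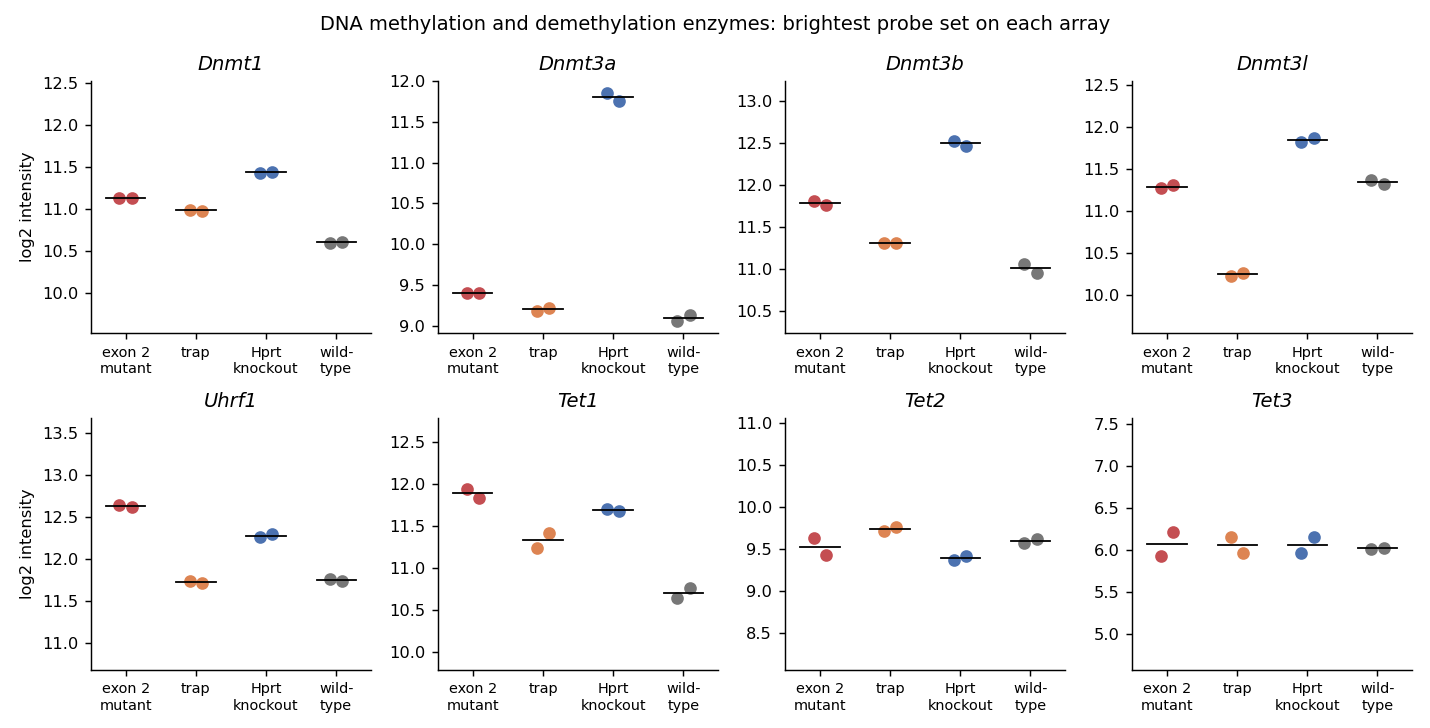
Log2 intensity on each array (vertical axis, a separate scale per panel) of the brightest probe set of the 8 genes, with a point per array and a bar at the group mean, n = 2 per group. Dnmt3a stands out in the Hprt knockout line at 11.75 and 11.85, Dnmt3l is lowest in the trap line at 10.23 and 10.27, Uhrf1 is highest in the exon 2 mutant at 12.62 and 12.65, and Tet3 points of all lines overlap.

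Of the dioxygenases, Tet1 (chromosome 10, positions 62804570 to 62887469) rose in all 3 lines relative to wild-type cells. It read 11.95 and 11.84 in exon 2 mutant, 11.25 and 11.42 in trap, 11.70 and 11.69 in Hprt knockout, and 10.64 and 10.76 in wild-type arrays. Wild-type arrays lay below all others and trap arrays between them and the remaining lines. The exon 2 mutant difference from wild-type was 1.19 ± 0.08 (adjusted p = 4.08e-05), a 2.28-fold higher signal that 3.29% of all genes tested matched or passed. The Hprt knockout difference was 0.99 ± 0.08 (adjusted p = 2.37e-05) and the trap difference 0.63 ± 0.08 (adjusted p = 0.000923). With the stem cell marker scaling these were 0.75, 0.64 and 0.18, and the last no longer passed (adjusted p = 0.0667). Trap cells were lower than Hprt knockout cells by -0.36 ± 0.08 (adjusted p = 0.00471). Exon 2 mutant and Hprt knockout cells differed by 0.20 ± 0.08, which did not pass (adjusted p = 0.0601, 95% interval 0.01 to 0.38). It passed with cyclic loess normalization (0.31, adjusted p = 0.00837) and with the mean of all probe sets (0.18, adjusted p = 0.0222). Among the 4 Tet1 probe sets the exon 2 mutant exceeded wild-type by 0.49 to 1.54. The dimmest, 1419897_at, put the trap line at -0.08 from wild-type, where the other 3 gave 0.53 to 0.80.

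Tet2 (chromosome 3, positions 133463677 to 133545136) had its lowest mean in the Hprt knockout line. By the brightest probe set it read 9.63 and 9.43 in exon 2 mutant, 9.72 and 9.76 in trap, 9.37 and 9.42 in Hprt knockout, and 9.57 and 9.62 in wild-type arrays, and the exon 2 mutant arrays spanned the wild-type ones. Trap cells exceeded Hprt knockout cells by 0.35 ± 0.07 (adjusted p = 0.00423). Hprt knockout cells were lower than wild-type cells by -0.20 ± 0.07 (adjusted p = 0.0396), a call lost without any 1 array of the trap, Hprt knockout or wild-type lines (adjusted p from 0.0611 to 0.152). Exon 2 mutant cells were lower than trap cells by -0.21 ± 0.07 (adjusted p = 0.0483), which fell to -0.11 (adjusted p = 0.198) without exon 2 mutant replicate 2, failed when any other array but exon 2 mutant replicate 1 was left out, and did not pass with the stem cell marker scaling either (-0.20, adjusted p = 0.0560). Exon 2 mutant and Hprt knockout cells differed by 0.14 ± 0.07, which did not pass (adjusted p = 0.145, 95% interval -0.04 to 0.31), but they did with cyclic loess (0.28, adjusted p = 0.0110) and with the mean of both probe sets (0.58, adjusted p = 0.000126). Neither mutant line differed from wild-type cells past the threshold, with -0.07 ± 0.07 for exon 2 mutant (adjusted p = 0.476, 95% interval -0.24 to 0.11) and 0.15 ± 0.07 for trap cells (adjusted p = 0.158, 95% interval -0.03 to 0.32). With the stem cell marker scaling both were lower than wild-type, at -0.51 (adjusted p = 0.000622) and -0.31 (adjusted p = 0.00682). The second Tet2 probe set, 1438781_at, gave a far larger Hprt knockout deficit. It read 9.02 and 9.08 in exon 2 mutant, 9.20 and 9.20 in trap, 8.01 and 8.02 in Hprt knockout, and 9.07 and 9.29 in wild-type arrays, a Hprt knockout difference from wild-type of -1.16. By this probe set the exon 2 mutant exceeded Hprt knockout cells by 1.03 (adjusted p = 5.77e-05).

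Tet3 (chromosome 6, positions 83362373 to 83457208), known for its role in the zygote, stayed near the filter level, which averaged log2 5.35. It read 5.93 and 6.22 in exon 2 mutant, 6.16 and 5.96 in trap, 5.96 and 6.15 in Hprt knockout, and 6.02 and 6.03 in wild-type arrays, and the ranges of all 4 lines overlapped. None of its 6 differences between lines passed, and the largest was 0.05 ± 0.12 for exon 2 mutant against wild-type (adjusted p = 0.714, 95% interval -0.22 to 0.33). The stem cell marker scaling put it below wild-type in exon 2 mutant (-0.39, adjusted p = 0.0199), trap (-0.42, adjusted p = 0.0154) and Hprt knockout cells (-0.32, adjusted p = 0.0474).

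Ordered by the mean of the brightest probe set, Dnmt1, Dnmt3a and Dnmt3b ran from Hprt knockout through exon 2 mutant and trap to wild-type cells. In Dnmt3a trap and wild-type cells did not differ past the threshold by that probe set, while 1423063_at and 1460324_at were lower in trap cells. Dnmt3l ran from Hprt knockout through wild-type and exon 2 mutant to trap cells, with exon 2 mutant and wild-type not separated. Uhrf1 ran from exon 2 mutant through Hprt knockout and wild-type to trap cells, with the last pair not separated. Tet1 ran from exon 2 mutant through Hprt knockout and trap to wild-type cells. The first pair was not separated, although it passed in the alternatives given above. For Tet2 the order was trap, wild-type, exon 2 mutant and Hprt knockout, and no neighbours in it differed past the threshold by the brightest probe set, although exon 2 mutant and Hprt knockout did by other measures of the gene given above.

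Counted over the set, changes were common, but they were common among all genes too. In exon 2 mutant against wild-type cells 5 of the 8 genes passed, all higher, against 55.5% of the 13819 genes tested. In trap against Hprt knockout cells 7 passed (6 lower, Tet2 higher) against 68.4% of all genes, and in Hprt knockout against wild-type cells 7 passed (6 higher, Tet2 lower) against 71.5%. Trap against wild-type cells gave 4 (Dnmt1, Dnmt3b and Tet1 higher, Dnmt3l lower) against 41.1%. Exon 2 mutant against trap cells gave 7 (6 higher, Tet2 lower) against 49.2%, and exon 2 mutant against Hprt knockout cells gave 5 (Uhrf1 higher, 4 lower) against 61.2%. By direction, 32.5% of all genes were higher in exon 2 mutant and 46.4% in Hprt knockout than in wild-type cells. In trap cells 41.8% were lower than in Hprt knockout cells, and 26.5% were higher and 14.6% lower than in wild-type cells. Exon 2 mutant cells had 24.5% higher than trap cells and 36.3% lower than Hprt knockout cells. Without regard to direction, each count lies above its share of all genes, most of all in exon 2 mutant against trap cells. That count falls to 4 without exon 2 mutant replicate 2, trap replicate 1 or trap replicate 2. The 8 genes were chosen with earlier results known, and no excess over the shares was tested. The comparisons share arrays, so their counts are not independent of each other.

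A change of at least 2-fold was rarer. It was met by 1 gene (Tet1) in exon 2 mutant against wild-type cells, where 5.43% of all genes met it, and by 3 (Dnmt3a, Dnmt3b and Dnmt3l) in trap against Hprt knockout cells, where 15.2% did. In Hprt knockout against wild-type cells 2 genes (Dnmt3a and Dnmt3b) met it, against 19.2%. Dnmt3l alone met it in trap against wild-type cells (3.42% of all genes) and in exon 2 mutant against trap cells (4% of all genes), and Dnmt3a alone in exon 2 mutant against Hprt knockout cells (11.1%). The median log2 difference of the 8 genes was 0.42 in exon 2 mutant against wild-type cells, beside 0.03 over all genes, and -0.50 in trap against Hprt knockout cells, beside -0.13. It was 0.68 in Hprt knockout against wild-type cells, beside 0.16, and 0.13 in trap against wild-type cells, beside 0.05.

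**Figure D3:**
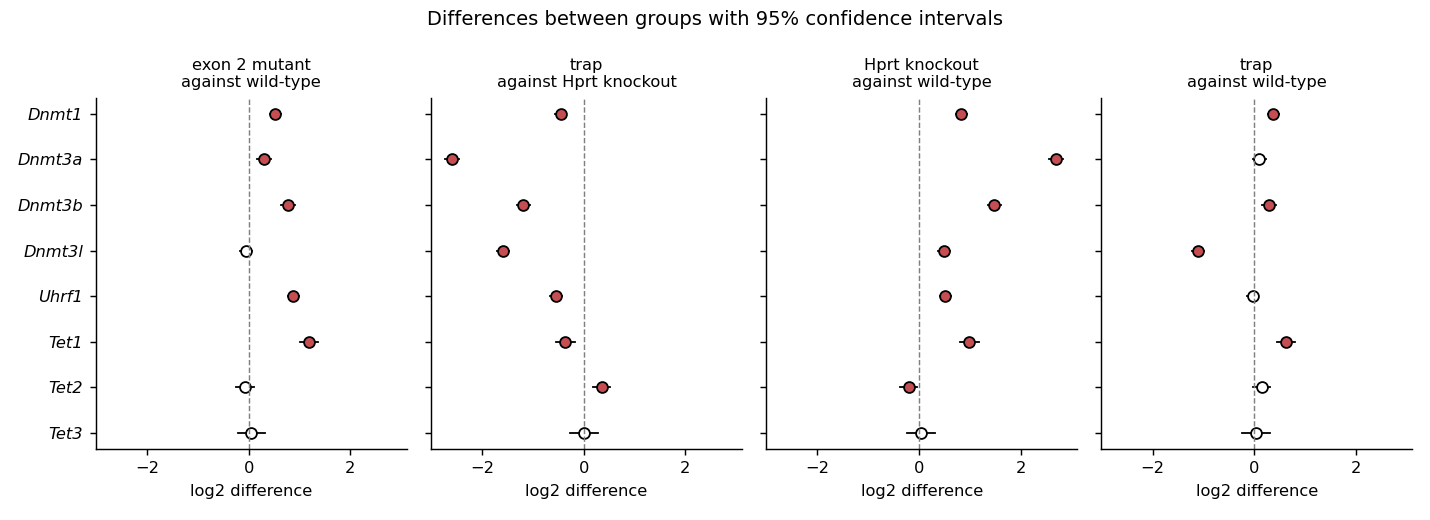
Log2 differences with 95% intervals (horizontal axis) for the 8 genes (rows) in 4 comparisons, from the fit to all 8 arrays. Dnmt3a reaches 2.70 in Hprt knockout against wild-type and -2.60 in trap against Hprt knockout, Dnmt3l is at -1.10 in trap against wild-type, and every Tet3 interval spans 0.

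The 2 Gtf2i mutant lines were set against each other by testing whether exon 2 mutant minus wild-type differed from trap minus Hprt knockout. Of the 8 genes 7 passed, against 69.7% of all genes, and 5 of them were at least 2-fold, against 29.3%. Dnmt3a gave 0.31 for exon 2 mutant against wild-type cells and -2.60 for trap against Hprt knockout cells. These differed by 2.91 ± 0.08 (adjusted p = 2.20e-07). For Dnmt3b the difference was 1.97 ± 0.08 (adjusted p = 1.23e-06) and for Dnmt3l it was 1.54 ± 0.07 (adjusted p = 2.06e-06). Tet2 went the other way, with -0.07 for exon 2 mutant against wild-type and 0.35 for trap against Hprt knockout. These differences contain the Hprt knockout arrays, in which 27 of 27 feeder markers were lower than in the trap line, by a median of 3.99 on the log2 scale. The feeder part in them was not tested. Compared directly with trap cells, exon 2 mutant cells were higher in Dnmt3l (1.04), Uhrf1 (0.91), Tet1 (0.56), Dnmt3b (0.48), Dnmt3a (0.20) and Dnmt1 (0.15). Tet2 was lower (-0.21). The calls for Dnmt3a, Dnmt1 and Tet2 were lost without single arrays, as given above. No control line enters these differences, and the 2 lines also differ in Hprt and in parental line.

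Genes that work with these enzymes were described through lists written from general knowledge, and their counts are to be read against the shares of all 13819 genes. In exon 2 mutant against wild-type cells 32.5% of all genes were higher and 23.1% lower, and in trap against Hprt knockout cells 26.6% were higher and 41.8% lower. In Hprt knockout against wild-type cells the shares were 46.4% and 25.1%, and in trap against wild-type cells 26.5% and 14.6%. Among 17 partners and regulators of the methyltransferases, 14 were higher and 1 lower in exon 2 mutant than in wild-type cells, with a median of 0.40 on the log2 scale beside 0.03 for all genes, of which 55.5% passed. The largest differences there were those of Prdm14, a repressor of de novo methyltransferase genes in the mouse (1.30, adjusted p = 3.31e-05), and Nsd1, a histone H3 lysine 36 methyltransferase (1.00, adjusted p = 3.53e-05). In trap against Hprt knockout cells 1 was higher and 10 were lower (median -0.28, all genes -0.13), led by Dppa3, an inhibitor of UHRF1, at -2.53 (adjusted p = 9.79e-08). In Hprt knockout against wild-type cells 16 were higher and 0 lower (median 0.60, all genes 0.16). In trap against wild-type cells 6 were higher and 1 lower (median 0.13, all genes 0.05), close to the 41.1% of all genes that passed. The lower one was Dppa3, at -1.28 (adjusted p = 2.50e-05), while Prdm14 was higher by 1.55 (adjusted p = 3.09e-05). Exon 2 mutant cells had higher Dppa3 than wild-type cells, by 0.83 (adjusted p = 6.52e-05), and Hprt knockout cells had higher Dppa3 (1.26), Prdm14 (1.43) and Nsd1 (1.14) than wild-type cells, all of which passed. With the stem cell marker scaling the counts against wild-type became 4 higher and 7 lower in exon 2 mutant, 9 and 3 in Hprt knockout and 2 and 11 in trap cells, while trap against Hprt knockout cells kept 1 higher with 13 lower, and the differences given for Prdm14 and Dppa3 still passed in the same direction.

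Readers of methylated DNA had calls in both directions. Of 7 tested, 2 were higher and 2 lower in exon 2 mutant than in wild-type cells, 3 higher and 2 lower in trap than in Hprt knockout cells, 2 higher and 5 lower in Hprt knockout than in wild-type cells, and 3 higher and 1 lower in trap than in wild-type cells. Of all genes 55.5%, 68.4%, 71.5% and 41.1% passed in these 4 comparisons. Mbd4, a glycosylase that removes thymine from mismatches left by deaminated methylcytosine, was higher than in wild-type cells in the exon 2 mutant (1.06, adjusted p = 3.53e-05), Hprt knockout (1.55, adjusted p = 1.26e-06) and trap lines (0.54, adjusted p = 0.000932). Zbtb4, a zinc finger protein that binds methylated DNA, was higher in trap than in Hprt knockout cells by 3.35 (adjusted p = 3.47e-07) and lower in Hprt knockout than in wild-type cells by -3.06 (adjusted p = 4.58e-07). Both went the way of the feeder markers, whose part was not tested. With the marker scaling 1 reader was higher and 6 lower in exon 2 mutant cells, 2 higher and 5 lower in Hprt knockout cells and 0 higher and 4 lower in trap cells against wild-type, and Mbd4 in trap cells no longer passed (0.08, adjusted p = 0.239).

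Of 14 genes of base excision and other demethylation routes, 11 were higher and 1 lower in exon 2 mutant than in wild-type cells, where 55.5% of all genes passed, and 11 and 1 in Hprt knockout than in wild-type cells, where 71.5% did. The medians were 0.31 beside 0.03 for all genes and 0.55 beside 0.16. In trap cells 2 were higher and 9 lower than in Hprt knockout cells (median -0.41, all genes -0.13, 68.4% passed), and 6 higher and 2 lower than in wild-type cells (median 0.10, all genes 0.05, 41.1% passed). Apobec1, a cytidine deaminase, was higher in exon 2 mutant than in wild-type cells by 1.54 (adjusted p = 6.20e-06), and Ung, a uracil glycosylase, by 0.78 (adjusted p = 9.17e-05). Both were higher in Hprt knockout than in wild-type cells too, Apobec1 by 0.87 and Ung by 0.43, of which that of Ung did not pass with the marker scaling (0.08, adjusted p = 0.302). The stress-response gene Gadd45b was lower than in wild-type cells in all 3 other lines, by -1.06 in exon 2 mutant (adjusted p = 3.60e-05), -1.74 in trap (adjusted p = 1.18e-05) and -1.33 in Hprt knockout cells (adjusted p = 2.72e-06). With the marker scaling the counts against wild-type became 4 higher and 7 lower in exon 2 mutant, 7 and 3 in Hprt knockout and 3 and 8 in trap cells. Tdg and Neil2 were not analysed here, because no probe set named them alone.

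Of 15 genes of S-adenosylmethionine and one-carbon metabolism, which supply the methyl donor, 12 were higher and 0 lower in exon 2 mutant than in wild-type cells, with a median of 0.51 beside 0.03 for all genes, of which 32.5% were higher. In trap cells 1 was higher and 13 lower than in Hprt knockout cells (median -0.59, all genes -0.13, of which 41.8% were lower), and 6 were higher and 6 lower than in wild-type cells (median -0.08, all genes 0.05, of which 41.1% passed). Hprt knockout cells had 12 higher and 1 lower than wild-type, where 46.4% of all genes were higher. Gldc, the glycine decarboxylase, was higher than in wild-type cells by 1.44 in exon 2 mutant (adjusted p = 6.16e-06), 1.91 in Hprt knockout (adjusted p = 1.17e-07) and 0.83 in trap cells (adjusted p = 5.20e-05). Mthfd2, a mitochondrial folate enzyme, was higher by 0.86 in exon 2 mutant cells (adjusted p = 6.06e-05) but lower by -0.52 in trap cells (adjusted p = 0.000841), both against wild-type, and higher by 0.90 in Hprt knockout cells (adjusted p = 1.32e-05). With the marker scaling 7 were higher and 4 lower in exon 2 mutant, 10 and 2 in Hprt knockout and 1 and 12 in trap cells against wild-type.

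Germ line genes known to be silenced by promoter methylation were described next, with RNA levels only. Of 14 tested, 7 were higher and 4 lower in exon 2 mutant than in wild-type cells, where 55.5% of all genes passed, led by Ddx4, a germ cell RNA helicase (1.52, adjusted p = 9.32e-05), and Mael, a piRNA pathway gene (1.24, adjusted p = 4.61e-05). In trap cells 1 was higher and 13 lower than in Hprt knockout cells (median -1.10, all genes -0.13, of which 41.8% were lower). Against wild-type cells 1 was higher and 7 lower (median -0.33, all genes 0.05, of which 14.6% were lower), and Slc25a31, an ADP/ATP carrier of the germ line, fell by 1.37 (adjusted p = 4.93e-05). Hprt knockout cells had 10 higher and 2 lower than wild-type, where 71.5% of all genes passed, with Ddx4 at 1.59 and Mael at 1.85, which both passed. With the marker scaling the counts against wild-type became 4 higher and 6 lower in exon 2 mutant, 5 and 4 in Hprt knockout and 0 and 12 in trap cells. Methylation of these genes was not measured.

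DNA replication genes, which are transcribed around S phase like Dnmt1 and Uhrf1, gave 17 higher and 1 lower of 20 in exon 2 mutant against wild-type cells (median 0.47), where 55.5% of all genes passed. In trap against wild-type cells 2 were higher and 2 lower (median 0.01), a smaller share than the 41.1% of all genes that passed. In trap cells 0 were higher and 19 lower than in Hprt knockout cells, where 41.8% of all genes were lower, and in Hprt knockout cells 19 were higher and 0 lower than in wild-type cells, where 46.4% of all genes were higher. The origin licensing gene Cdc6 was higher in exon 2 mutant than in wild-type cells by 0.89 (adjusted p = 5.18e-05), and in Hprt knockout than in wild-type cells by 0.87 (adjusted p = 1.51e-05). With the marker scaling 4 were higher and 6 lower in exon 2 mutant, 10 and 1 in Hprt knockout and 1 and 18 in trap cells against wild-type.

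**Figure D4:**
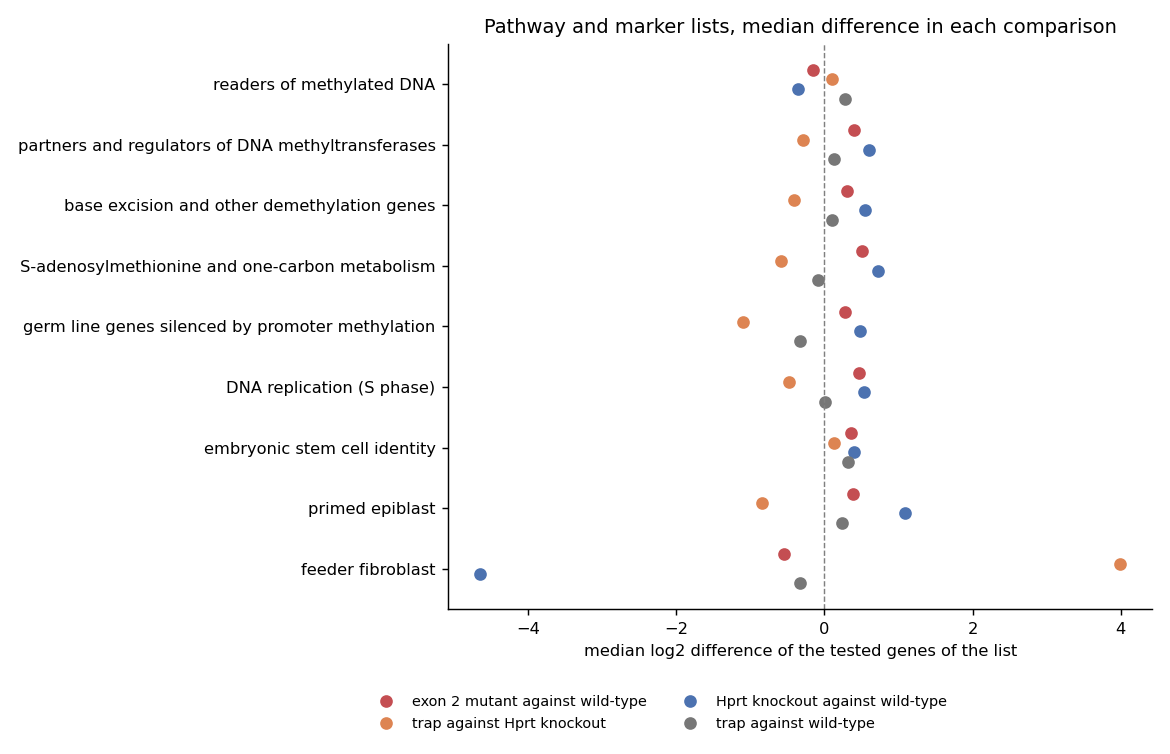
Median log2 difference (horizontal axis) of the tested genes of 9 lists (rows) in 4 comparisons, with colours for the comparisons. The feeder fibroblast list spans -4.64 (Hprt knockout against wild-type) to 3.99 (trap against Hprt knockout), and among the enzyme-related lists the germ line genes reach -1.10 in trap against Hprt knockout.

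The genes whose pattern over the 8 arrays was most like that of a member were named as a description, with Pearson correlations over 8 arrays from only 4 lines, so that the arrays of a line share its cells and feeders. Dnmt3a was closest to Gng3, Mrpl28 and Heatr1 (r = 0.999 for each), and 65 genes passed 0.99 with it. Dnmt3l was closest to Folr1 (0.997), Ticrr (0.995) and Slc46a3 (0.994), and only 4 genes passed 0.99. Uhrf1 was closest to Pif1 (0.996), Aldh5a1 (0.994) and Gstcd (0.994), and Tet1 to Nexmif (0.996), Zfp655 (0.995) and Rreb1 (0.995). For Dnmt1 the closest were Ttf2, Dhtkd1 and Acad11 (0.997 to 0.998), for Dnmt3b Ndc1, Gpx4 and Pank2 (0.996 to 0.997), and for Tet2 Acbd5, Tceal1 and Rab7b (0.972 to 0.980). Tet3, near the filter level, had none above 0.91. With the mean of the feeder markers over the same 8 arrays, Dnmt3a correlated at -0.999, Dnmt3b at -0.925, Dnmt1 at -0.843 and Dnmt3l at -0.643. Tet1 correlated with it at -0.484, Uhrf1 at -0.376, Tet3 at -0.049 and Tet2 at 0.743. The part of feeder RNA in these patterns was not tested.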

How the data were processed

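Total RNA of 8 mouse embryonic stem cell samples was measured on Affymetrix arrays. The deposited values are log2 intensities for 45101 probe sets. Per the submitters' processing notes, the authors computed them with RMA (version not given in the sources used here). RMA normalizes arrays by quantiles, so a shift of most genes is not visible. Groups follow the genotype labels, 2 arrays each. Array number, not depth, limits the precision.

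Each of 18193 genes was represented by its brightest probe set carrying 1 symbol. Of the probe sets 34945 had 1 symbol, 932 several and 9160 none, besides 64 controls. Genes above the array's 40th percentile on at least 2 of 8 arrays were tested (13819). A model of 4 group means was fitted with limma 3.58.1 (lmFit, eBayes) in R 4.3.3, giving 4 residual degrees of freedom (6.86 moderated). Two-sided p-values were Benjamini-Hochberg adjusted over all genes of a comparison and called under 0.05. With 2 arrays a group the smallest exact permutation p is 0.333. A second fit over 28786 probe sets used no gene summary. Named genes were the 8 members, Gtf2i and Hprt, up to 4 called genes per list and comparison by largest absolute difference, and the 3 genes most correlated with each member. The members and lists were chosen with earlier results of these data known. Alternatives were cyclic loess, other filters, the mean of probe sets, an intensity trend, a replicate block, only the compared arrays, leaving out single arrays and, added after the data were seen, scaling to stem cell markers and leaving out both Hprt knockout arrays. The fit was checked on simulated data.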

Additional observations from a re-analysis of the deposited data

Results flagged for a closer look

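For 7 of the 8 genes exon 2 mutant minus wild-type differed from trap minus Hprt knockout, by the test of that contrast itself. Line background and mutation cannot be told apart in it. On the log2 scale the first difference minus the second was 0.98 for Dnmt1, 2.91 for Dnmt3a, 1.97 for Dnmt3b and 1.54 for Dnmt3l. It was 1.43 for Uhrf1, 1.55 for Tet1 and -0.42 for Tet2, and adjusted p for the 7 ran from 2.20e-07 to 0.00900. Tet3 gave 0.05 (adjusted p = 0.789). Of all genes tested 69.7% passed the same test. The median feeder marker differed by -4.79 in the same contrast, and its part in these values was not tested.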

How the results depend on the processing

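The directions of all called differences among the 8 genes held under cyclic loess, other filters, the mean of probe sets, an intensity trend, a replicate block, the fit of only the compared arrays and the removal of any 1 array. Scaling to stem cell markers, added after the data were seen, turned 8 differences from wild-type. These were Dnmt3a (-0.14) and Tet3 (-0.39) in exon 2 mutant cells, Tet3 (-0.32) in Hprt knockout cells, and Dnmt1 (-0.077), Dnmt3a (-0.35), Dnmt3b (-0.16), Tet2 (-0.31) and Tet3 (-0.42) in trap cells. It moved the median of all genes from 0.03 to -0.42 in exon 2 mutant, from 0.16 to -0.19 in Hprt knockout and from 0.05 to -0.41 in trap cells against wild-type, by its construction.

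With a 2-fold change asked as well, the members called numbered 1 in exon 2 mutant against wild-type, 3 in trap against Hprt knockout, 2 in Hprt knockout against wild-type, 1 in trap against wild-type, 1 in exon 2 mutant against trap and 1 in exon 2 mutant against Hprt knockout. Leaving out single arrays gave 4 to 6 in exon 2 mutant against trap cells. Over settings that kept all arrays, together with the fit of only the compared arrays, 396 values kept their direction and side of the threshold. In these settings 12 lost the threshold, 10 gained it, 8 turned as given above and 7 not called either way changed sign. Without both Hprt knockout arrays 23 were kept and 1 lost, Tet2 in exon 2 mutant against trap. Leaving out single arrays kept 409, with 23 lost, 3 gained and 13 moved.

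Replicate numbers did not pair the samples, since same-numbered deviations correlated at -0.28 to 0.17. The replicate block cost 3 calls, Dnmt1 (adjusted p = 0.0613) and Tet2 (adjusted p = 0.0767) in exon 2 mutant against trap and Tet2 (adjusted p = 0.0627) in Hprt knockout against wild-type, and changed no other. No filter on low values cost the same 3. With cyclic loess the share of calls that were higher was 47.7% against 58.4% in exon 2 mutant and 54.1% against 64.6% in trap, both against wild-type. It was 49.9% against 64.9% in Hprt knockout against wild-type, 52.5% against 38.9% in trap against Hprt knockout and 54.6% against 40.7% in exon 2 mutant against Hprt knockout. For exon 2 mutant minus wild-type set against trap minus Hprt knockout it was 48.1% against 61.2%. Scaling to stem cell markers made these shares 11.4% in exon 2 mutant, 34.3% in Hprt knockout and 6.36% in trap cells against wild-type. For the contrast of both differences the share became 39.3%. The cause was not tested for any other change.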
